A study of Mus musculus with 24 samples.

Results

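The 37 genes described here encode the proteins that bring long-chain fatty acids into heart cells and oxidise them, together with transcriptional and metabolic regulators of that route. They were taken by name from a list ordered by step, and all 37 were found among the 15667 genes listed for uninjected hearts and the 15327 listed for injected hearts. Of the 37, 5 belong to uptake, 4 to activation, 4 to the carnitine shuttle, 9 to the core of mitochondrial beta-oxidation, 4 to the handling of unsaturated chains and related auxiliary steps, 2 to peroxisomes, 3 to electron transfer and 6 to regulation. All 37 passed the filter on low values in both sets of hearts.

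Lipoprotein lipase frees fatty acids from lipoproteins at the vessel wall, and membrane and cytosolic carriers take them into the cell. Acyl-CoA synthetases activate them, the carnitine shuttle moves them across the inner mitochondrial membrane, and a cycle of dehydrogenation, hydration, a second dehydrogenation and thiolysis shortens the chain, with electrons passed on by electron transfer flavoprotein. The heart turns from glycolysis towards this route in the days after birth, under nuclear receptors of the PPAR and ERR families and their PGC-1 coactivators.

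The mice were Xinβ knockouts (KO) and wild-type (WT) littermates, all studied at postnatal day 7.5. Xinβ, encoded by Xirp2, is a protein of the intercalated disc, the junction between cardiomyocytes. The KO is germline, so every cell type of the heart carries it, and a LacZ-Neo cassette stands in place of part of the gene. One set of hearts received no virus, with 4 KO and 4 WT hearts, and the other set received AAV9 at postnatal day 1, with 4 hearts in each of KO/GFP, WT/GFP, KO/YAP and WT/YAP. The cardiac troponin T promoter drove GFP or YAP S127A, a Flag-tagged human YAP lacking the inhibitory phosphorylation site, so the transgene was directed to cardiomyocytes. The labels name the tissue heart apex and the methods of the study name ventricles, and the methods state that each group mixed males and females.

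RNA was counted in 24 libraries, with 20490875 to 31154155 reads on genes in uninjected and 15015038 to 19444404 in injected hearts. Levels are given in CPM, the authors' read counts scaled for depth, and the uninjected set was read at 50 bp single-end and the injected set at 150 bp paired-end, so levels were not compared between the sets. Reads on the 37 genes made up 1.64% to 2.55% of the reads of a library. The lowest counts in a single library were those of Ppara, with 125 to 759 reads in uninjected and 99 to 407 in injected libraries. Ehhadh had 249 to 458 reads in uninjected and 109 to 337 in injected libraries. Xirp2 was between 0.291 and 0.692 CPM in uninjected KO and between 106 and 168 CPM in uninjected WT hearts. In injected hearts it was at most 0.972 CPM in the 8 KO and at least 56.0 CPM in the 8 WT libraries. Uninjected KO replicate 1 stood apart: the median log2 level of genes with over 5 kb of exon, less that of genes under 2 kb, was -0.73 relative to WT, and the other uninjected libraries lay between -0.09 and 0.10. KO/GFP replicate 2 was at -0.29 on the same measure, where the other 15 injected libraries lay between -0.15 and 0.18.

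A gene is called in a comparison when the p-value of limma, fitted to log2(CPM + 1) and adjusted over every gene tested, is under 0.05. Fold changes are given on this log2 scale, so those of weakly expressed genes come out too small. Positions are those of the GENCODE M21 annotation of GRCm38.

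**Figure D1:**
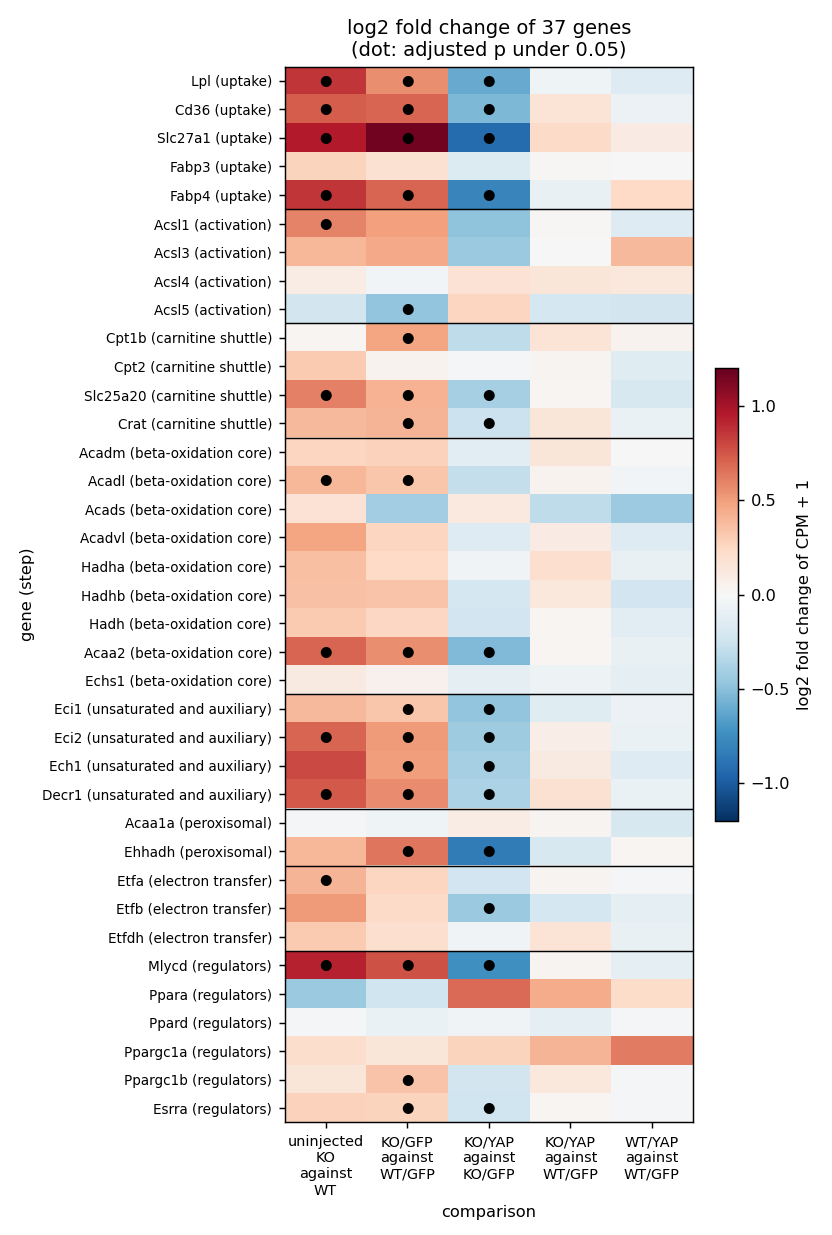
Log2 fold change of each of the 37 genes (vertical axis, ordered by step) in 5 comparisons (horizontal axis), with red for higher and blue for lower in the first-named group and a dot where the adjusted p-value was under 0.05. Of the 5 uptake genes 4 carry a dot in each of the first 3 comparisons, red in both KO comparisons and blue in KO/YAP against KO/GFP, and the last comparisons hold no dot.

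Many genes of the route were higher in KO than in WT hearts of the same set, among them 4 of the 5 uptake genes. In uninjected hearts 12 of the 37 genes were called, all of them higher in KO, where 6.69% of all 15598 tested genes were called, 3.23% higher and 3.46% lower. In KO/GFP against WT/GFP hearts 17 were called higher and 1, Acsl5, lower, where 13.7% of all tested genes were called, 6.43% higher and 7.22% lower. The median log2 fold change of the 37 genes was 0.39 in uninjected and 0.33 in GFP-injected hearts, against 0.00 and -0.01 for all tested genes. With values rescaled to equal totals the medians were 0.25 and 0.22, against -0.12 and -0.11 for all tested genes. Relative to cardiomyocyte markers they were 0.13 and 0.16, against -0.26 and -0.18, and 7 of the 37 changed sign in uninjected hearts and 3 in GFP-injected hearts, none of them called. The values of KO and WT hearts did not overlap for 21 of the genes in uninjected hearts, all higher in KO, where 8.01% of all tested genes lay apart with KO higher and 8.43% with KO lower. In GFP-injected hearts this held for 17 genes, all higher in KO, against 7.32% of all tested genes with KO higher and 7.95% with KO lower.

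The uninjected count rested on single libraries. It was 19 without KO replicate 1 or without KO replicate 4, where 11.3% and 13.5% of all tested genes were called. It was 3 without KO replicate 2 and 4 without KO replicate 3, at 3.38% and 3.89% of all tested genes. Without WT replicate 1 or WT replicate 3 it was 1, which is 2.70% of the 37 and close to the 2.43% and 2.63% of all tested genes. Without WT replicates 2 and 4 it was 2 and 6, at 2.85% and 3.29% of all tested genes. The GFP count ranged from 12 without KO/GFP replicate 4, where 8.65% of all tested genes were called, to 26 without KO/GFP replicate 2, where 18.9% were called.

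The comparisons of KO with WT in uninjected and in GFP-injected hearts share no libraries. The 10 genes called in both, namely Lpl, Cd36, Slc27a1, Fabp4, Slc25a20, Acadl, Acaa2, Eci2, Decr1 and Mlycd, were higher in KO both times and make up 83.3% of the genes called in uninjected and 55.6% of those called in GFP-injected hearts. Of the 13734 genes tested in both sets, 611 (4.45%) were called in both, in either direction. These 611 make up 61.8% of the genes called in uninjected and 31.6% of those called in GFP-injected hearts. Of them 302, which is 2.20% of the genes tested in both sets, were called higher both times. Of the 37 genes, 35 had the same sign in both comparisons, and 31 were positive in both. Of all genes tested in both sets, 72.3% had the same sign and 34.8% were positive in both.

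**Figure D2:**
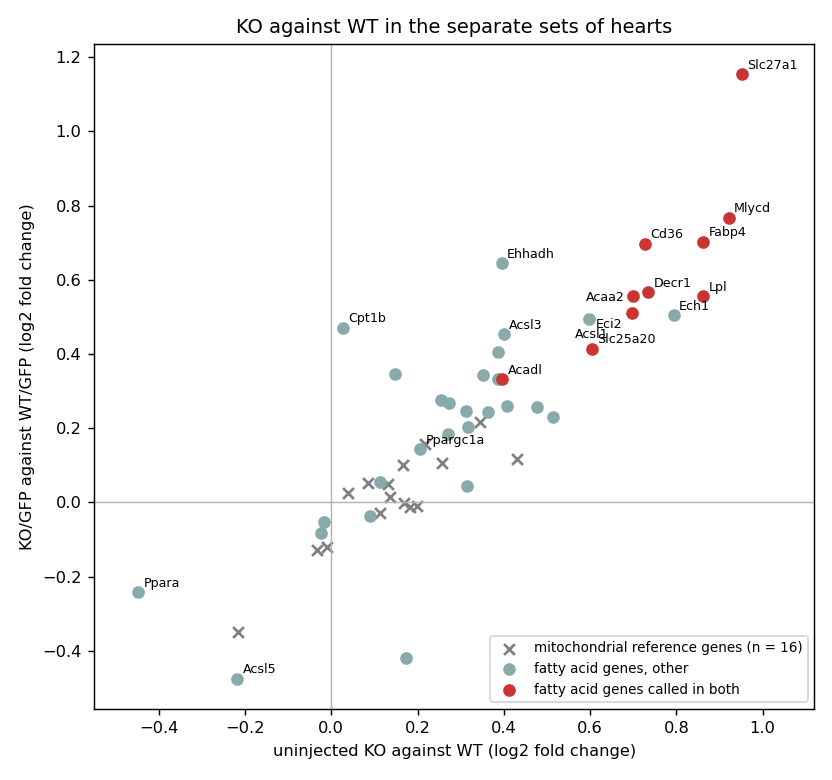
Log2 fold change of KO against WT in uninjected hearts (horizontal) and of KO/GFP against WT/GFP (vertical) for the 37 genes and 16 mitochondrial reference genes. The 10 genes called in both comparisons (red) lie at the upper right, led by Slc27a1 at 0.95 and 1.15, while the reference genes (grey crosses) lie between -0.22 and 0.43 and between -0.35 and 0.22.

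The calls differed in how many alternative fits they lasted. In uninjected hearts Lpl stayed called in all 18 fits, whereas the call was lost in 4 for Slc27a1 and Decr1, 5 for Slc25a20, 6 for Mlycd, 7 for Fabp4, 8 for Eci2, 9 for Acsl1, 10 for Cd36, Acadl and Etfa and 12 for Acaa2. In KO/GFP against WT/GFP Cd36, Slc27a1, Fabp4, Acaa2, Decr1 and Mlycd stayed called in all 27 fits, and Lpl, Cpt1b, Crat, Eci2 and Ech1 in all but 1. There the call was lost in 3 for Acsl5, 4 for Slc25a20, 5 for Eci1 and Ehhadh, 7 for Esrra and 9 for Acadl and Ppargc1b.

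At the first step 4 of the 5 uptake genes were called higher in KO in both sets, and Fabp3 was not. Lipoprotein lipase, encoded by Lpl (ENSMUSG00000015568, chr8:68880491-68907448), was at 1678, 2394, 2349.6 and 1678 CPM in the uninjected KO hearts, in the order of their replicate numbers, and in the same order 1105, 1193, 986 and 1115 CPM in uninjected WT. In injected hearts it was at 2452, 2259, 1951 and 2785 CPM in KO/GFP, 1638, 1510.1, 1809 and 1436 in WT/GFP, 1571, 1641, 1469 and 1472 in KO/YAP and 1417, 1452, 1480.5 and 1372 in WT/YAP. Every KO heart without YAP S127A lay above every WT heart of its set, and the KO/YAP hearts lay within the WT/GFP range. The log2 fold change of Lpl was 0.86 (SE 0.15, adjusted p = 0.0117) in uninjected KO, 0.56 (SE 0.11, adjusted p = 0.00257) in KO/GFP against WT/GFP and -0.61 (SE 0.11, adjusted p = 0.00134) in KO/YAP against KO/GFP.

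Cd36 (ENSMUSG00000002944, chr5:17781690-17888801), the fatty acid translocase of the plasma membrane, was at 949.7, 1399.7, 1438 and 902 CPM in uninjected KO and 674, 787, 637 and 678 CPM in WT. It was at 1399.7, 946, 1144 and 1567 CPM in KO/GFP, 717, 751, 785 and 810.5 in WT/GFP, 829.5, 930.2, 799 and 870.1 in KO/YAP and 743, 834, 678 and 679 in WT/YAP. KO replicates 2 and 3 were well above replicates 1 and 4 in uninjected hearts, yet neither set had a KO heart without YAP S127A within the WT range. Cd36 had log2 fold changes of 0.73 (SE 0.17, adjusted p = 0.0393) in uninjected KO, 0.70 (SE 0.13, adjusted p = 0.00203) in KO/GFP against WT/GFP and -0.54 (SE 0.13, adjusted p = 0.00953) in KO/YAP against KO/GFP.

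The largest change of the 37 genes belonged to Slc27a1 (ENSMUSG00000031808, chr8:71568882-71587302), which encodes the fatty acid transport protein FATP1. It was at 275, 297, 308 and 173 CPM in uninjected KO and 131, 143, 117 and 141 CPM in WT. It was at 267, 274, 232 and 319 CPM in KO/GFP, 119.6, 106, 142 and 120.4 in WT/GFP, 125, 136, 149 and 164 in KO/YAP and 135, 121, 135 and 128 in WT/YAP. The KO/GFP hearts all lay above the other 12 injected hearts, and uninjected KO replicate 4 was the KO heart closest to WT. Slc27a1 had log2 fold changes of 0.95 (SE 0.18, adjusted p = 0.0165) in uninjected KO, 1.15 (SE 0.11, adjusted p = 9.09e-06) in KO/GFP against WT/GFP and -0.92 (SE 0.11, adjusted p = 6.16e-05) in KO/YAP against KO/GFP.

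Fabp4 (ENSMUSG00000062515, chr3:10204088-10208576) encodes a cytosolic fatty acid carrier best known from adipocytes, macrophages and capillary endothelium. Its level was 1648, 1403, 1284 and 883 CPM in uninjected KO and 649, 717, 687 and 749 CPM in WT. In injected hearts it was 1288, 1542, 996 and 1335 CPM in KO/GFP, 864, 703, 815 and 758 in WT/GFP, 743, 834, 719 and 664 in KO/YAP and 872, 877, 828 and 1147 in WT/YAP. Uninjected KO hearts were above uninjected WT and KO/GFP above WT/GFP hearts, and WT/YAP replicate 4 stood above the other WT/YAP hearts. Fabp4 had log2 fold changes of 0.86 (SE 0.18, adjusted p = 0.0233) in uninjected KO, 0.70 (SE 0.13, adjusted p = 0.00233) in KO/GFP against WT/GFP and -0.79 (SE 0.13, adjusted p = 0.000973) in KO/YAP against KO/GFP. Of 8 adipocyte markers only Cidea was listed in these tables, at 37.8 to 67.7 CPM in uninjected KO and 29.2 to 34.7 CPM in WT, and it was called in no comparison. Of 10 endothelial markers, 1 was called higher and 1 lower in uninjected KO, and 1 higher and 3 lower in KO/GFP. Their part in the levels of Fabp4 was not tested.

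Fabp3, the heart-type carrier, was the most abundant of the 37 genes per length of exon, with a mean of 4661 CPM per kb in WT/GFP hearts against 665 for Acaa2, the next, and 2.84 for Ehhadh, the lowest. Its level was 4659 ± 997 CPM in uninjected KO and 3802 ± 165 CPM in WT (mean ± SD, n = 4), and the groups overlapped. Fabp3 had log2 fold changes of 0.27 (SE 0.15, adjusted p = 0.335) in uninjected KO and 0.18 (SE 0.12, adjusted p = 0.342) in KO/GFP against WT/GFP.

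**Figure D3:**
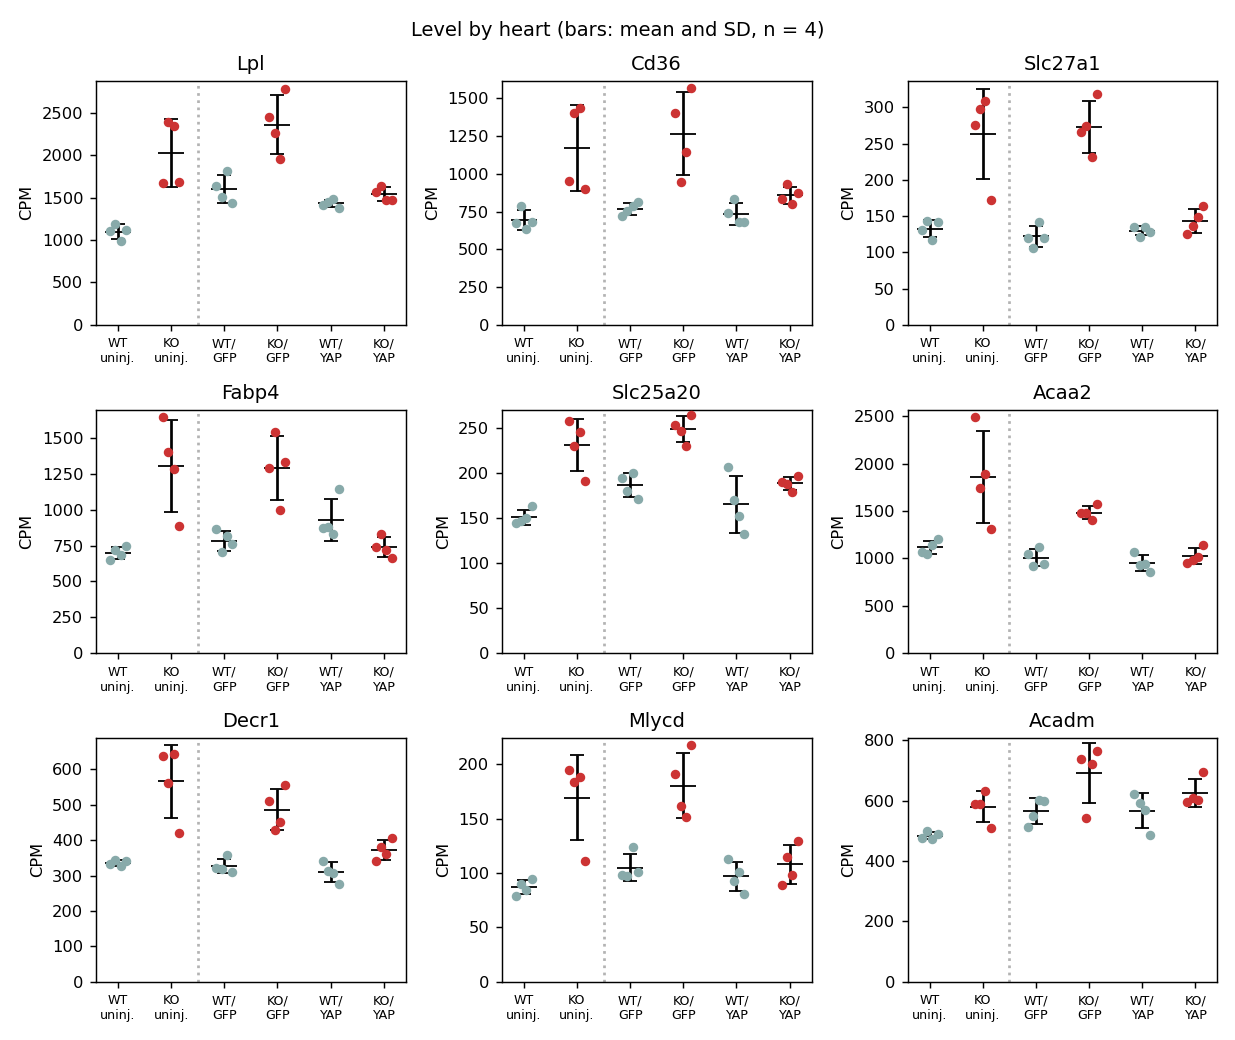
CPM of 9 genes in each heart (points) by group, with the mean and SD of 4 hearts (black), uninjected hearts left and injected hearts right of the dotted line. For 8 of the genes uninjected KO hearts lie above uninjected WT hearts, KO/GFP hearts above WT/GFP hearts and KO/YAP hearts below KO/GFP hearts, whereas Acadm, which was called in no comparison, overlaps between KO/GFP and WT/GFP.

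Nuclear receptors of the PPAR and ERR families bind a half-site with the letters AGGTCA, which PPAR dimers read as a direct repeat spaced by 1 base. In the RefSeq promoter table of build GRCm38.p6, 30 of the 37 genes had at least 1 window, 33 windows in all. In the 250 bases before the start, read on both strands, AGGTCA was found in 4 of the 33 windows (12.1%), those of Cd36, Acadm, Acadvl and Echs1, and in 14.02% of the 32851 windows of the table. That direct repeat, which holds AGGTCA at either end, was found in 0 of the 33 and in 0.0335% of all windows, and the extended ERR site TCAAGGTCA, which also ends in AGGTCA, in 0 and in 0.387%. The windows of 3 of the 4 genes, which overlap no GENCODE exon, are shown because they carry the letters of the receptors that stand among the regulators below. The half-site, or its reverse complement TGACCT, is in capitals, and each is on the minus strand of its chromosome and runs 5′ to 3′ up to the base before the start. They lie at chr5:17835897-17836146 (Cd36, inside the span of the gene in GENCODE), chr3:153944644-153944893 (Acadm) and chr11:70015429-70015678 (Acadvl).
Cd36: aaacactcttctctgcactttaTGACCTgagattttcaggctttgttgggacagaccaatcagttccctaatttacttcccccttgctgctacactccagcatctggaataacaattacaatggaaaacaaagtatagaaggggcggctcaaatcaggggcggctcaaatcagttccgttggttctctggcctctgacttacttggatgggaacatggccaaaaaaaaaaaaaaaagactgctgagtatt
Acadm: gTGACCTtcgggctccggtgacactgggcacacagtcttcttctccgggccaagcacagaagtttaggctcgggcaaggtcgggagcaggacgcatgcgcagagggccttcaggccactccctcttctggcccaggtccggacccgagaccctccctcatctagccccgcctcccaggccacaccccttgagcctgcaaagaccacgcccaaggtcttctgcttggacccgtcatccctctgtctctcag
Acadvl: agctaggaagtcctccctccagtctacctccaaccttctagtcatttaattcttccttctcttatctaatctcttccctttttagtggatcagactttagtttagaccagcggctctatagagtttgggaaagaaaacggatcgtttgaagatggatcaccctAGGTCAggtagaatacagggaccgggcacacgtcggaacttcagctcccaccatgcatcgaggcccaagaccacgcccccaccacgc
Of these genes Cd36 was called in 3 comparisons, while Acadm, Acadvl and Echs1 were called in none.

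Of the 4 activation genes 1 was called higher in uninjected KO and 1 lower in KO/GFP. Acsl1 (ENSMUSG00000018796, chr8:46471037-46536051), the main long-chain acyl-CoA synthetase of heart, was at 854, 857, 919 and 839 CPM in uninjected KO and 601, 516, 469.6 and 735 CPM in WT. It was at 890.3, 495, 731 and 959.8 CPM in KO/GFP, 477, 514, 549 and 581 in WT/GFP, 453, 605, 449 and 661 in KO/YAP and 601, 484, 472 and 370.2 in WT/YAP. In uninjected hearts the genotypes did not overlap, whereas KO/GFP replicate 2 fell within the WT/GFP range. Acsl1 was called in uninjected KO (log2 fold change 0.60, SE 0.14, adjusted p = 0.037) and not in KO/GFP against WT/GFP (0.50, SE 0.19, adjusted p = 0.0967) or KO/YAP against KO/GFP (-0.48, SE 0.19, adjusted p = 0.101).

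Acsl5 (ENSMUSG00000024981, chr19:55251938-55297720), another long-chain synthetase, was the one gene of the 37 called lower in KO against WT. It was at 23.0, 22.9, 26.4 and 19.6 CPM in KO/GFP, 39.8, 34.1, 25.7 and 30.5 in WT/GFP, 26.6, 28.7, 26.4 and 28.5 in KO/YAP and 29.2, 27.1, 29.1 and 24.5 in WT/YAP. KO/GFP replicate 3 lay above WT/GFP replicate 3, so the groups overlapped. The log2 fold change was -0.47 (SE 0.12, adjusted p = 0.0162) in KO/GFP against WT/GFP, 0.26 (SE 0.12, adjusted p = 0.166) in KO/YAP against KO/GFP and -0.22 (SE 0.14, adjusted p = 0.412) in uninjected KO, where it was at 21.6, 19.9, 20.3 and 29.5 CPM against 26.1, 26.0, 28.7 and 24.8 CPM in WT. In KO/GFP against WT/GFP the call of Acsl5 was lost in 3 of 27 alternative fits (adjusted p up to 0.0909), without WT/GFP replicate 1, without KO/GFP replicate 4 and with only these groups in the fit. Acsl3 and Acsl4, which activate long-chain and polyunsaturated fatty acids, were called in no comparison, with log2 fold changes of 0.45 and -0.04 in KO/GFP against WT/GFP.

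In the carnitine shuttle Slc25a20 (ENSMUSG00000032602, chr9:108662088-108684641), the carnitine-acylcarnitine translocase of the inner membrane, was called in both KO comparisons. It was at 258, 230.3, 245 and 192 CPM in uninjected KO and 145, 147, 150.2 and 163 CPM in WT. It was at 254, 246.8, 229.9 and 264 CPM in KO/GFP, 194, 180.0, 200.4 and 171 in WT/GFP, 191, 188, 179 and 197 in KO/YAP and 206, 171, 153 and 132 in WT/YAP. KO hearts without YAP S127A were above all WT hearts of their set, and the KO/YAP hearts lay among WT/GFP. Slc25a20 had log2 fold changes of 0.60 (SE 0.11, adjusted p = 0.014) in uninjected KO, 0.41 (SE 0.11, adjusted p = 0.0167) in KO/GFP against WT/GFP and -0.40 (SE 0.11, adjusted p = 0.0206) in KO/YAP against KO/GFP.

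Crat (ENSMUSG00000026853, chr2:30400471-30415813), carnitine acetyltransferase, was at 734, 680.2, 689 and 564 CPM in uninjected KO and 495, 507, 509.5 and 519 CPM in WT. It was at 422, 434, 384.8 and 421 CPM in KO/GFP, 321, 291, 316 and 325 in WT/GFP, 365, 345, 328 and 352 in KO/YAP and 330.2, 296, 278 and 285 in WT/YAP. It was the single gene of the 37 whose KO/YAP hearts did not overlap WT/GFP, and the KO/YAP hearts lay between WT/GFP and KO/GFP. Crat had log2 fold changes of 0.39 (SE 0.10, adjusted p = 0.0535) in uninjected KO, 0.41 (SE 0.07, adjusted p = 0.00201) in KO/GFP against WT/GFP, -0.26 (SE 0.07, adjusted p = 0.0272) in KO/YAP against KO/GFP and 0.15 (SE 0.07, adjusted p = 0.83) in KO/YAP against WT/GFP.

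Cpt1b (ENSMUSG00000078937, chr15:89416405-89425863), the muscle carnitine palmitoyltransferase that sets entry into mitochondria, was at 402, 858, 668 and 785 CPM in uninjected KO and 674, 693, 503 and 713 CPM in WT. It was at 717, 662, 673 and 779 CPM in KO/GFP, 518, 412, 570.2 and 552 in WT/GFP, 549, 599.8, 543 and 594 in KO/YAP and 608, 512, 495 and 488 in WT/YAP. All KO/GFP hearts exceeded all WT/GFP hearts, but uninjected KO replicate 1 had the lowest level of its set. That library had low values of genes with over 5 kb of exon, while Cpt1b has 3372 bases of exon. A link between the low level and that trait of the library was not tested. Cpt1b had log2 fold changes of 0.03 (SE 0.23, adjusted p = 0.957) in uninjected KO, 0.47 (SE 0.10, adjusted p = 0.00645) in KO/GFP against WT/GFP and -0.31 (SE 0.10, adjusted p = 0.0566) in KO/YAP against KO/GFP. Cpt2, which rebuilds acyl-CoA inside the mitochondrion, was called in no comparison. Its log2 fold change was 0.32 (SE 0.10, adjusted p = 0.0869) in uninjected KO, without overlap between the genotypes, and 0.05 (SE 0.08, adjusted p = 0.775) in KO/GFP against WT/GFP.

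Of the 9 genes of the core of beta-oxidation, 2 were called higher in each KO comparison, Acadl and Acaa2, and the step's median log2 fold change was 0.35 in uninjected and 0.26 in GFP-injected hearts. Acadl (ENSMUSG00000026003, chr1:66830839-66863277), long-chain acyl-CoA dehydrogenase, was at 1488, 1532, 1508 and 1335 CPM in uninjected KO and 1078, 1159, 1105 and 1106 CPM in WT. It was at 1558, 1399.8, 1556 and 1611 CPM in KO/GFP, 1211, 1122, 1362 and 1178 in WT/GFP, 1221, 1289.6, 1213 and 1289 in KO/YAP and 1365, 1260.5, 1134 and 1028 in WT/YAP. Groups did not overlap in either KO comparison, nor between KO/YAP and KO/GFP, although the adjusted p-value of the last just missed the threshold. Acadl had log2 fold changes of 0.40 (SE 0.09, adjusted p = 0.0319) in uninjected KO, 0.33 (SE 0.09, adjusted p = 0.0273) in KO/GFP against WT/GFP and -0.29 (SE 0.09, adjusted p = 0.0505) in KO/YAP against KO/GFP.

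Acaa2, on chromosome 18, encodes the mitochondrial thiolase that ends the cycle. It was at 2489, 1741, 1889 and 1313 CPM in uninjected KO and 1068, 1049, 1139 and 1208 CPM in WT. It was at 1475, 1476, 1403 and 1569 CPM in KO/GFP, 1051, 921, 1117 and 944 in WT/GFP, 956, 979.5, 1019 and 1146 in KO/YAP and 1063, 928, 945 and 859 in WT/YAP. The KO/GFP hearts were close to each other and above every other injected heart, while uninjected KO ranged widely, highest in replicate 1 and lowest in replicate 4. Acaa2 had log2 fold changes of 0.70 (SE 0.18, adjusted p = 0.049) in uninjected KO, 0.56 (SE 0.09, adjusted p = 0.000996) in KO/GFP against WT/GFP and -0.53 (SE 0.09, adjusted p = 0.00125) in KO/YAP against KO/GFP.

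The other 7 core genes were called in no comparison. They are the acyl-CoA dehydrogenases Acadm, Acads and Acadvl, for medium, short and very long chains, the subunits Hadha and Hadhb of the trifunctional protein, the dehydrogenase Hadh and the hydratase Echs1. In uninjected hearts Acadm, Acadvl, Hadha, Hadhb and Hadh had KO values above all WT values, with log2 fold changes from 0.26 to 0.48 and adjusted p-values from 0.0617 to 0.137. In GFP-injected hearts the 7 genes ranged from -0.42 for Acads to 0.34 for Hadhb and the groups overlapped for each. Hadha was at 1647, 939, 1508 and 1754 CPM in KO/GFP and 1153, 1181, 1224 and 1254 CPM in WT/GFP, and Hadhb at 886, 579.9, 928 and 1059.9 CPM in KO/GFP and 610.0, 600.2, 709.7 and 749 CPM in WT/GFP. KO/GFP replicate 2 was the lowest KO/GFP heart for both, and for these genes the other 3 KO/GFP hearts lay above WT/GFP. Hadha and Hadhb are transcribed away from each other on chromosome 5, and their 300-base promoter windows share 228 bases (chr5:30155003-30155230). Without KO/GFP replicate 2, 26 of the 37 genes were called in KO/GFP against WT/GFP, 25 higher and 1 lower, where 18.9% of all tested genes were called.

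All 4 genes for unsaturated and auxiliary steps were called higher in KO/GFP and lower in KO/YAP than in KO/GFP, and 2 of the 4 were called higher in uninjected KO. Eci2 (ENSMUSG00000021417, chr13:34977748-35027096), an enoyl-CoA isomerase, was at 253, 195, 226 and 150.1 CPM in uninjected KO and 124, 117, 130.04 and 128 CPM in WT. It was at 198, 148, 162 and 214.1 CPM in KO/GFP, 127, 120.0, 125 and 129 in WT/GFP, 126, 141, 125 and 138 in KO/YAP and 131, 125, 114 and 105 in WT/YAP. The WT hearts of each set lay close together and below every KO heart without YAP S127A. Eci2 had log2 fold changes of 0.70 (SE 0.15, adjusted p = 0.0304) in uninjected KO, 0.51 (SE 0.11, adjusted p = 0.0043) in KO/GFP against WT/GFP and -0.43 (SE 0.11, adjusted p = 0.0116) in KO/YAP against KO/GFP.

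Decr1 (ENSMUSG00000028223, chr4:15917240-15945507), the mitochondrial dienoyl-CoA reductase needed for polyunsaturated chains, was at 639, 560.1, 642 and 421 CPM in uninjected KO and 332, 343, 326 and 339.6 CPM in WT. It was at 509.6, 427, 452 and 555 CPM in KO/GFP, 320.0, 319, 357 and 311 in WT/GFP, 342, 381, 361 and 406 in KO/YAP and 342, 314, 308 and 275 in WT/YAP. KO and WT did not overlap in either set, and KO/YAP lay below KO/GFP while overlapping the upper end of WT/GFP. Decr1 had log2 fold changes of 0.73 (SE 0.14, adjusted p = 0.0155) in uninjected KO, 0.57 (SE 0.09, adjusted p = 0.00112) in KO/GFP against WT/GFP and -0.38 (SE 0.09, adjusted p = 0.0124) in KO/YAP against KO/GFP.

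Ech1 (ENSMUSG00000053898, chr7:28825217-28832247), a dienoyl-CoA isomerase, was at 1563, 1139, 1185 and 695 CPM in uninjected KO and 606, 658, 589 and 689 CPM in WT. It was at 813, 819, 682 and 901 CPM in KO/GFP, 595, 525, 667 and 484 in WT/GFP, 583, 596, 605 and 647 in KO/YAP and 494, 524, 506 and 509 in WT/YAP. The uninjected KO hearts spread from just above WT in replicate 4 to far above it in replicate 1, and there the adjusted p-value missed the threshold without any overlap. Ech1 had log2 fold changes of 0.79 (SE 0.21, adjusted p = 0.06) in uninjected KO, 0.50 (SE 0.10, adjusted p = 0.00342) in KO/GFP against WT/GFP and -0.40 (SE 0.10, adjusted p = 0.0135) in KO/YAP against KO/GFP.

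Eci1 (ENSMUSG00000024132, chr17:24426641-24439348), the other mitochondrial enoyl-CoA isomerase, was at 319.7, 239, 229.9 and 197 CPM in uninjected KO and 175, 176, 192 and 199.2 CPM in WT. It was at 276, 307, 260.1 and 282 CPM in KO/GFP, 240.4, 203, 246 and 205 in WT/GFP, 192, 206, 198 and 211 in KO/YAP and 234, 204, 202 and 210.02 in WT/YAP. Uninjected KO replicate 4 was inside the WT range, whereas all KO/GFP hearts exceeded the other injected hearts. Eci1 had log2 fold changes of 0.39 (SE 0.14, adjusted p = 0.147) in uninjected KO, 0.33 (SE 0.08, adjusted p = 0.0143) in KO/GFP against WT/GFP and -0.48 (SE 0.08, adjusted p = 0.00147) in KO/YAP against KO/GFP.

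Of the peroxisomal genes Ehhadh (ENSMUSG00000022853, chr16:21761287-21787807), the bifunctional enzyme, was called in injected hearts despite its low level. It was at 12.1, 15.1, 18.4 and 15.1 CPM in uninjected KO and 10.1, 10.7, 11.5 and 12.6 CPM in WT. It was at 12.9, 11.9, 11.9 and 18.6 CPM in KO/GFP, 6.51, 7.64, 9.24 and 10.4 in WT/GFP, 6.20, 7.71, 6.35 and 8.69 in KO/YAP and 10.8, 8.62, 7.14 and 7.81 in WT/YAP. KO/GFP hearts were above all other injected hearts, with replicate 4 well above the rest. Ehhadh had log2 fold changes of 0.40 (SE 0.14, adjusted p = 0.131) in uninjected KO, 0.65 (SE 0.17, adjusted p = 0.021) in KO/GFP against WT/GFP and -0.84 (SE 0.17, adjusted p = 0.00446) in KO/YAP against KO/GFP. Acaa1a, the peroxisomal thiolase, was called in no comparison (log2 fold change -0.02 in uninjected KO and -0.05 in KO/GFP against WT/GFP), and its reads are uncertain because of its near-identical copy Acaa1b.

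All 3 electron transfer genes had positive log2 fold changes in both KO comparisons and negative ones in KO/YAP against KO/GFP, with 1 called in uninjected KO and 1 in KO/YAP against KO/GFP. Etfa (ENSMUSG00000032314, chr9:55454508-55512243), the alpha subunit of electron transfer flavoprotein, was at 463, 434, 452 and 416 CPM in uninjected KO and 363.03, 324, 321 and 322 CPM in WT. It was at 613, 438, 571 and 646 CPM in KO/GFP, 476, 450.2, 471 and 476 in WT/GFP, 481, 485, 463 and 481 in KO/YAP and 492, 508, 471 and 379.7 in WT/YAP. The genotypes were apart in uninjected hearts, and KO/GFP replicate 2 lay below the WT/GFP hearts. Etfa was called in uninjected KO (log2 fold change 0.41, SE 0.09, adjusted p = 0.0262) and not in KO/GFP against WT/GFP (0.26, SE 0.11, adjusted p = 0.134) or KO/YAP against KO/GFP (-0.23, SE 0.11, adjusted p = 0.172).

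Etfb (ENSMUSG00000004610, chr7:43444083-43457800), the beta subunit, was at 599, 294, 317 and 245 CPM in uninjected KO and 208, 256, 263 and 234 CPM in WT. It was at 480.5, 529, 392.4 and 451 CPM in KO/GFP, 457, 372, 418 and 334 in WT/GFP, 319, 369, 360.0 and 309.7 in KO/YAP and 420.0, 311, 351 and 387 in WT/YAP. Uninjected KO replicate 1 was far above the other uninjected hearts, and KO/YAP hearts lay below all KO/GFP hearts. Etfb had log2 fold changes of 0.51 (SE 0.25, adjusted p = 0.259) in uninjected KO, 0.23 (SE 0.12, adjusted p = 0.224) in KO/GFP against WT/GFP and -0.44 (SE 0.12, adjusted p = 0.0192) in KO/YAP against KO/GFP. Etfdh, which hands the electrons to ubiquinone, was called in no comparison, with a log2 fold change of 0.32 (SE 0.09, adjusted p = 0.0705) in uninjected KO, where the genotypes did not overlap.

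Of the 6 regulators Mlycd was called in both KO comparisons. Mlycd (ENSMUSG00000074064, chr8:119394878-119411102) encodes malonyl-CoA decarboxylase, which removes the inhibitor of carnitine palmitoyltransferase 1. It was at 195, 184, 189 and 111 CPM in uninjected KO and 79.1, 89.7, 84.7 and 94.9 CPM in WT. It was at 191, 162, 152 and 217.5 CPM in KO/GFP, 98.3, 97.6, 124 and 101 in WT/GFP, 89.4, 115, 98.6 and 129.8 in KO/YAP and 113, 92.7, 101 and 80.7 in WT/YAP. KO and WT were apart in both sets, with uninjected KO replicate 4 again closest to WT. Mlycd had log2 fold changes of 0.92 (SE 0.18, adjusted p = 0.0177) in uninjected KO, 0.77 (SE 0.14, adjusted p = 0.00195) in KO/GFP against WT/GFP and -0.73 (SE 0.14, adjusted p = 0.00238) in KO/YAP against KO/GFP.

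Of the 5 transcriptional regulators Esrra and Ppargc1b were called in KO/GFP. Esrra (ENSMUSG00000024955, chr19:6910977-6921813), the estrogen-related receptor alpha, was at 128, 107, 95.9 and 81.2 CPM in uninjected KO and 84.3, 81.3, 84.1 and 85.5 CPM in WT. It was at 141, 141, 142 and 157 CPM in KO/GFP, 123, 120.4, 126 and 111 in WT/GFP, 115, 119.8, 133 and 122 in KO/YAP and 122, 109, 127 and 114 in WT/YAP. KO/GFP hearts were above all other injected hearts, and in uninjected hearts KO replicate 4 fell below the WT hearts. Esrra had log2 fold changes of 0.27 (SE 0.13, adjusted p = 0.269) in uninjected KO, 0.27 (SE 0.07, adjusted p = 0.0252) in KO/GFP against WT/GFP and -0.24 (SE 0.07, adjusted p = 0.0375) in KO/YAP against KO/GFP.

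Ppargc1b, on chromosome 18, encodes the coactivator PGC-1beta. It was at 24.6, 54.8, 44.2 and 53.8 CPM in uninjected KO and 41.0, 38.6, 36.9 and 36.3 CPM in WT. It was at 46.9, 45.4, 41.8 and 50.1 CPM in KO/GFP, 34.8, 38.0, 40.0 and 31.7 in WT/GFP, 40.2, 41.7, 36.4 and 39.6 in KO/YAP and 35.4, 30.0, 37.6 and 39.2 in WT/YAP. KO/GFP was above WT/GFP throughout, and uninjected KO replicate 1 was the lowest of its set with the other 3 KO hearts above WT. Ppargc1b had log2 fold changes of 0.15 (SE 0.23, adjusted p = 0.748) in uninjected KO, 0.35 (SE 0.10, adjusted p = 0.0298) in KO/GFP against WT/GFP and -0.22 (SE 0.10, adjusted p = 0.158) in KO/YAP against KO/GFP.

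Ppara, Ppard and Ppargc1a, encoding PPARalpha, PPARdelta and PGC-1alpha, were called in no comparison, and their groups overlapped in each. Ppara was at 6.07, 25.0, 20.03 and 18.9 CPM in uninjected KO and 24.0, 20.6, 28.4 and 15.7 CPM in WT, and at 13.5, 6.47, 10.6 and 9.91 CPM in KO/GFP and 7.89, 10.6, 12.3 and 18.6 CPM in WT/GFP. Its log2 fold change was -0.45 (SE 0.38, adjusted p = 0.55) in uninjected KO and -0.24 (SE 0.28, adjusted p = 0.63) in KO/GFP against WT/GFP. With standard errors of 0.38 and 0.28, changes of that size could not be detected. Ppard had log2 fold changes of -0.02 and -0.08, and Ppargc1a had 0.21 and 0.14 in the same comparisons.

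Many of the genes were lower in KO hearts given YAP S127A than in KO hearts given GFP. Of the 37, 15 were called, all lower in KO/YAP, where 14.8% of all tested genes were called, 7.85% higher and 6.92% lower. The median log2 fold change of the 37 was -0.24, against 0.01 for all tested genes, and KO/YAP and KO/GFP values did not overlap for 18 genes, all lower in KO/YAP, against 8.52% of all tested genes with KO/YAP lower and 9.02% with KO/YAP higher. The largest decreases were in Slc27a1 (-0.92), Ehhadh (-0.84), Fabp4 (-0.79) and Mlycd (-0.73). This comparison shares the 4 KO/GFP hearts with KO/GFP against WT/GFP. Over 27 alternative fits Lpl, Slc27a1, Fabp4, Acaa2, Eci1, Ehhadh and Mlycd stayed called, while the call was lost in 3 for Cd36, Eci2, Ech1 and Decr1, 5 for Slc25a20, 6 for Etfb, 9 for Crat and 11 for Esrra. With values rescaled to equal totals 7 of the 37 (18.9%) were called, against 18.8% of all tested genes, and the median of the 37 was -0.11 against 0.13 for all tested genes.

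Against WT/GFP, KO/YAP hearts had no called member. limma called 3 of 14597 genes there (0.0206%), and 1 of the 37 members and 888 of all tested genes had an unadjusted p-value under 0.05. On the recovered reads edgeR called 0 members and 3 genes in all, and DESeq2 called 0 members and 24 genes in all. The 37 log2 fold changes ran from -0.30 for Acads to 0.44 for Ppara, with a median of 0.04, which turned to -0.04 relative to cardiomyocyte markers, and standard errors from 0.07 to 0.28. Groups did not overlap for 1 of the 37, Crat, where 2.13% of all tested genes lay apart with KO/YAP higher and 2.32% with KO/YAP lower. WT/YAP against WT/GFP likewise had 0 called members and 0% of all tested genes called by limma, with 2 members and 1011 of all tested genes at an unadjusted p-value under 0.05. There edgeR called 0 members and 0 genes in all, and DESeq2 0 members and 11 genes in all. The range was -0.43 for Acads to 0.62 for Ppargc1a, with a median of -0.08, which turned to 0.04 relative to mitochondrial reference genes. Groups overlapped for all 37, where 2.12% of all tested genes lay apart with WT/YAP higher and 2.19% with WT/YAP lower. Both comparisons use the WT/GFP hearts.

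The effect of YAP S127A in KO hearts was compared with that in WT hearts by the interaction of genotype and vector. It was called for 5 of the 37 genes, all more negative in KO, where 7.56% of all tested genes were called, 3.8% positive and 3.77% negative. These were Slc27a1 (difference of log2 fold changes -1.02, SE 0.15, adjusted p = 0.0015), Fabp4 (-1.03, SE 0.18, adjusted p = 0.00404), Ehhadh (-0.86, SE 0.25, adjusted p = 0.0436), Acaa2 (-0.45, SE 0.13, adjusted p = 0.0459) and Eci1 (-0.41, SE 0.12, adjusted p = 0.0466). Over the 37 genes the median was -0.21, with 27 negative and 10 positive. The count was 8 without KO/GFP replicate 2, where 10.1% of all tested genes were called. It was 2 without any one of KO/GFP replicates 1 and 4, WT/GFP replicate 2, WT/YAP replicates 1 and 2 and KO/YAP replicates 1, 2 and 3. Without any one of WT/GFP replicates 1 and 4 and WT/YAP replicates 3 and 4 it was 3. In the fits with a count of 2, which is 5.41% of the 37, between 4.38% and 7.19% of all tested genes were called, and in those with a count of 3 (8.11%) between 4.32% and 5.27%. Over 26 alternative fits Slc27a1 and Fabp4 stayed called in each, while the call was lost in 13 for Ehhadh, 15 for Acaa2 and 19 for Eci1.

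Averaged over the 37 genes, the log2 level relative to the WT controls of the set was 0.40, 0.46, 0.48 and 0.21 in uninjected KO replicates 1 to 4 and between -0.02 and 0.02 in WT. It was 0.37, 0.14, 0.27 and 0.45 in KO/GFP, between -0.05 and 0.08 in WT/GFP, between -0.04 and 0.12 in KO/YAP and between -0.16 and 0.08 in WT/YAP. Each KO heart without YAP S127A was thus above the hearts of the other groups of its set, with uninjected KO replicate 4 and KO/GFP replicate 2 the lowest of their groups. The 16 mitochondrial reference genes belong to the citric acid cycle, the respiratory chain and ATP synthase, with the membrane channel gene Vdac1. Their average, taken in the same way, was 0.07 to 0.29 in uninjected KO against -0.04 to 0.06 in WT. These genes too were thus higher on average in every uninjected KO heart. Their average was -0.10 to 0.18 in KO/GFP against -0.07 to 0.03 in WT/GFP, and there the groups overlapped. Of these 16, 1 was called higher in KO/GFP against WT/GFP and 1 lower in KO/YAP against KO/GFP, and their log2 fold changes in uninjected hearts ran from -0.22 to 0.43.

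**Figure D4:**
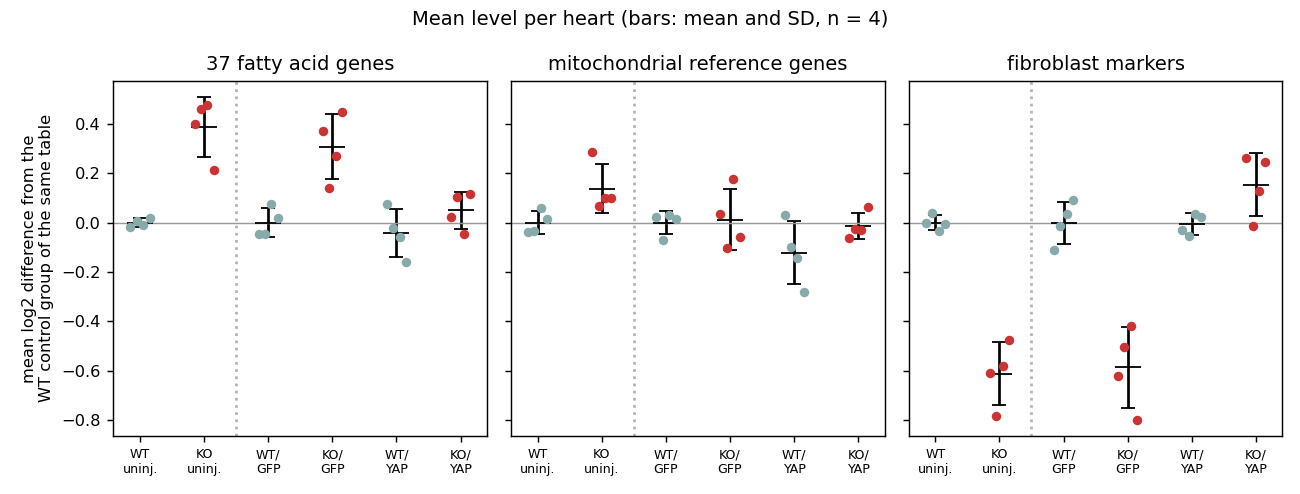
Mean log2 level per heart, relative to the WT control group of the same set, for the 37 fatty acid genes (left), 16 mitochondrial reference genes (middle) and 8 fibroblast markers (right); points are hearts and bars the mean and SD of 4. The fatty acid genes lie at 0.14 to 0.48 and the fibroblast markers at -0.80 to -0.42 in KO hearts without YAP S127A, while the other groups lie at -0.16 to 0.12 and at -0.11 to 0.26.

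Marker lists of other cell types were summed per heart. Over 8 fibroblast markers, summed levels were 2525 to 3869 CPM in uninjected KO against 5146 to 5380 CPM in WT, and 2156 to 3580 CPM in KO/GFP against 4615 to 5447 CPM in WT/GFP and 4989.9 to 6002 CPM in KO/YAP. Of the 8, 4 were called lower in uninjected KO, 6 lower in KO/GFP and 6 higher in KO/YAP against KO/GFP. Of the macrophage markers 5 of 7 tested were called lower in uninjected KO, 5 of 8 lower in KO/GFP and 5 of 8 higher in KO/YAP against KO/GFP. Their summed level was 50.6 to 94.8 CPM in uninjected KO and 92.2 to 110.4 CPM in WT, which overlapped, and one of them had a log2 fold change of 0.56 there. It was 53.6 to 109 CPM in KO/GFP, 111 to 176 CPM in WT/GFP and 106 to 145 CPM in KO/YAP. Of 6 erythroid markers 5 were called lower in KO/GFP, with a summed level of 1213 to 3117 CPM against 3392 to 8422 CPM in WT/GFP. They stayed at 1866 to 2061 CPM in KO/YAP, below every WT/GFP heart, and limma called 0 of the 6 in uninjected KO and in KO/YAP against KO/GFP, with median log2 fold changes of -0.34 and 0.03. The sum of 10 cardiomyocyte markers was 74098 to 95655 CPM in uninjected KO against 68139.7 to 76288 CPM in WT, and 65778 to 78260.4 CPM in KO/GFP against 58652 to 73605 CPM in WT/GFP, with 2 of the 10, Tnnt2 and Pln, called higher in each. Relative to the cardiomyocyte markers, a scaling added after the data were seen, 6 of the 37 genes (16.2%) were called in uninjected KO, 5 of them higher, where 20.4% of all tested genes were called. On that scaling 8 (21.6%) were called in KO/GFP against WT/GFP, 6 of them higher, against 17.8% of all tested genes. In KO/YAP against KO/GFP 7 (18.9%) were called, all lower, against 13.3%. In these whole-tissue samples fewer cells of a type and less RNA per cell cannot be told apart, and the part of these markers in the results was not tested.

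Other genes of lipid metabolism were counted from wider lists. Of 22 tested genes of lipid transport, storage and lipolysis, 8 were called higher in uninjected KO, 7 higher in KO/GFP and 6 lower in KO/YAP against KO/GFP, where 3.23%, 6.43% and 6.92% of all tested genes were called in these directions. The largest called log2 fold changes in KO/GFP were those of the lipid droplet proteins Plin4 (0.91) and Plin2 (0.78) and the triglyceride lipase Pnpla2 (0.90). Pnpla2 was at 183 to 318 CPM in KO/GFP, 101 to 149.5 CPM in WT/GFP and 122 to 155 CPM in KO/YAP. Of 26 tested genes of other oxidation steps, 7 were called higher in uninjected KO, 9 higher and 1 lower in KO/GFP, and 8 lower in KO/YAP against KO/GFP, to be read against the same shares and 7.22% lower in KO/GFP.

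Oxct1, which lets the heart use ketone bodies, was at 149 to 307 CPM in KO/GFP and 359 to 420 CPM in WT/GFP (log2 fold change -0.79, SE 0.16, adjusted p = 0.00383). The thioesterases Acot1 and Acot2 had log2 fold changes of 1.51 and 0.79 in KO/GFP, and their reads are uncertain as the genes are near-identical copies. Of 17 other regulators, 2 were called higher in each KO comparison, and 1 higher and 2 lower in KO/YAP against KO/GFP. Of all tested genes 3.23% were called higher in uninjected KO and 6.43% in KO/GFP. In KO/YAP against KO/GFP 7.85% were called higher and 6.92% lower. Whether counts this small differ from these shares was not tested. The regulators called in KO/GFP were the transcription factor Klf15 (2.06, SE 0.30, adjusted p = 0.000425), at 18.6 to 57.0 CPM against 4.57 to 12.9 CPM in WT/GFP, and Pparg (0.90, SE 0.21, adjusted p = 0.0082), at 11.6 to 27.9 CPM against 8.38 to 10.3 CPM. The groups did not overlap for either.

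In uninjected hearts Klf15 was at 25.0 to 52.2 CPM in KO and 9.49 to 10.4 CPM in WT (log2 fold change 1.87, SE 0.22, adjusted p = 0.00254), and Pparg at 11.8 to 19.6 CPM in KO and 6.01 to 7.34 CPM in WT (1.09, SE 0.16, adjusted p = 0.006). Both had KO hearts above every WT heart. Oxct1 was at 87.6 to 333 CPM in KO and 316 to 379 CPM in WT, overlapped and was not called (-1.37, SE 0.38, adjusted p = 0.0619).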

How the data were processed

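RNA of 24 hearts was measured by strand-specific poly(A) sequencing. Per the labels and the methods of the study, the authors trimmed reads with cutadapt 2.3, checked them with FastQC, aligned them to GRCm38 with HISAT2 2.1.0, counted genes with StringTie 1.3.4 and scaled libraries with edgeR 3.26.1. The deposited values are a depth-scaled signal per gene, read counts divided by effective library sizes and given as CPM, in 1 table for the 8 uninjected and 1 for the 16 injected libraries. Columns sum to 942566 to 1084066 and to 951561 to 1134439. Within 0.02 of a whole number, 100% and 99.96% of values came out as whole reads. Each limma p-value rests on the spread between hearts within groups, pooled over all groups of a set. limma also draws that spread towards a trend over all genes. No p-value measures spread beyond these hearts.

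Symbols came from GENCODE M21, which matched 15655 and 15314 identifiers. In each table on its own, genes over 1 CPM in at least 4 of 8 or 8 of 16 libraries were tested on log2(CPM + 1) with limma 3.58.1 (R 4.3.3, trend), a mean per group, and Benjamini-Hochberg adjustment over 15598 and 14597 genes. All p-values are 2-sided. Alternatives were other scalings, a pseudocount of 0.1, no filter, no trend, a replicate block and each library left out. For pairs of injected groups a fit to only the compared groups was also run. Count models were fitted in edgeR 4.0.16 and in DESeq2 1.42.0 to the reads recovered from the steps. The fits were also run on simulated data to check the code, and the outcome of that run is not given here. The 37 genes, the wider lists (lipid handling, other oxidation, other regulators, mitochondrial reference) and the marker lists (cardiomyocyte, fibroblast, endothelial, macrophage, erythroid, adipocyte) were chosen with earlier results of these data known. Of the 37, those called in uninjected KO, KO/GFP against WT/GFP or KO/YAP against KO/GFP are given by sample. From each wider list up to 3 called genes a direction are named by their size in KO/GFP against WT/GFP. One gene that this rule names is not reported here. Ppara, Hadha, Hadhb and Fabp3 were given values in addition, chosen after their values were seen. Figures were drawn with matplotlib 3.10.9.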

Additional observations from a re-analysis of the deposited data

Results flagged for a closer look

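Among the 21 genes given by sample, 126 groups of 4 hearts were checked for a heart with a large gap to its nearest neighbour. The gap was taken as a share of the group's range, with a cut where chance marks about 1 in 20 (6.3 groups). It was passed in 6 groups, whose gaps were 0.848 to 0.948 of the range. Fabp4 was at 1147 CPM in WT/YAP replicate 4 and at 828 to 877 CPM in the others of its group. Ehhadh was at 18.6 CPM and Esrra at 157 CPM in KO/GFP replicate 4, against 11.9 to 12.9 CPM and 141 to 142 CPM in the others. Etfa was at 363.03 CPM in uninjected WT replicate 1 (321 to 324 CPM in the others). Mlycd was at 111 CPM in uninjected KO replicate 4 (184 to 195 CPM) and at 124 CPM in WT/GFP replicate 3 (97.6 to 101 CPM).

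The effect of YAP S127A differed between KO and WT hearts by the limma interaction term for 5 of the 37 genes, where 7.56% of all tested genes were called. The difference was -1.02 for Slc27a1 (adjusted p = 0.0015), -1.03 for Fabp4 (adjusted p = 0.00404), -0.86 for Ehhadh (adjusted p = 0.0436), -0.45 for Acaa2 (adjusted p = 0.0459) and -0.41 for Eci1 (adjusted p = 0.0466). The log2 fold change was lower in KO than in WT hearts for each. Slc27a1 and Fabp4 stayed called in all 26 alternative fits, and Ehhadh, Acaa2 and Eci1 lost the call in 13, 15 and 19 of them.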

How the results depend on the processing

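Counts of the 37 genes called are given here for each alternative that moved them by 1.5 times or more. In brackets is the share of all tested genes called in the same fit. In uninjected hearts 12 (6.69%) became 7 with values rescaled to equal totals (10.2%), 1 with a replicate block (2.47%, so that 1 of 37 is at the level of all genes) and 21 with DESeq2 (12.5%). In KO/GFP against WT/GFP 18 (13.7%) became 12 with only the compared groups in the fit (6.37%). In KO/YAP against KO/GFP 15 (14.8%) became 7 with rescaled values (18.8%) and 10 with only the compared groups in the fit (8.28%). For the interaction 5 (7.56%) became 2 with rescaled values (8.42%), 3 without the trend (7.12%), 2 with a replicate block (4.84%) and 8 with DESeq2 (10.6%). After rescaling the median log2 fold change of all tested genes was -0.12 in uninjected KO, -0.11 in KO/GFP against WT/GFP and 0.13 in KO/YAP against KO/GFP. Scalings chosen after seeing the data gave 7 in uninjected hearts relative to mitochondrial reference genes (8.24%) and, relative to cardiomyocyte markers, 6 in uninjected hearts (20.4%), 8 in place of 18 in KO/GFP against WT/GFP (17.8%), 7 in KO/YAP against KO/GFP (13.3%) and 2 for the interaction (6.82%). Leaving out each library gave 1 to 19 in uninjected hearts (2.43% to 13.5%), 12 to 26 in KO/GFP against WT/GFP (8.65% to 18.9%), 11 to 21 in KO/YAP against KO/GFP (10.1% to 17.1%) and 2 to 8 for the interaction (4.32% to 10.1%). KO/YAP and WT/YAP against WT/GFP stayed at 0 in every alternative run. No called gene of the 37 changed sign in any alternative run. Same-numbered hearts did not deviate together (correlations of -0.19 to 0.10 in uninjected and -0.17 to 0.14 in injected hearts). With 4 hearts per group, and only equal numbers compared, this cannot show whether hearts shared a litter. The paper states that controls were littermates, and litter was not part of the fits. Standard errors had a median of 0.14 in uninjected and 0.11 in injected hearts, and with 4 hearts per group differences near that size could not be detected. The lowest read count of any of the 37 genes in a library was 99, that of Ppara in an injected heart.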
